A study of Mus musculus with 168 samples.

Results

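The cerebral cortex of mice killed 1 h after the end of 3 h of hypoxia (R1) was set against the cortex of sham-treated control mice. The 6 arrays, 3 for R1 and 3 for control, were those whose labels name the cortex and these time points, out of 24 cortex arrays and 24 of each of 6 other brain regions. All mice were C57BL/6 males of 8 to 9 weeks. R1 mice breathed 8% oxygen for 3 h and then room air for 1 h. By the study's methods the control mice spent 3 h in the same kind of chamber with room air and 24 h back in their cages. The labels give the control time point as 0hr and state no time since the chamber. By the methods alone, R1 mice had left a chamber more recently than control mice. Effects of hypoxia, of handling and of the hour of killing cannot be told apart here. The other cortex groups were killed after 1 or 3 h of hypoxia (H1 and H3) or 3, 6, 12 or 24 h after it (R3 to R24), with 3 mice in each group. Levels are linear fluorescence intensities of probe sets, short sets of probes that each measure 1 transcript, and differences are on the scale log2(intensity + 16), which understates the change of dim transcripts. A transcript was called where limma's moderated test, with the spread estimated over the 24 cortex arrays, gave an adjusted p under 0.05 (Benjamini-Hochberg over 45037 probe sets).

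When oxygen falls, the HIF transcription factors are no longer degraded and turn on genes of glycolysis, blood vessel growth and growth arrest, and hydroxylases that use oxygen mark HIF for destruction again once oxygen returns. Lack of oxygen also brakes the growth kinase mTOR and releases adrenal glucocorticoids, which act on brain cells through a nuclear receptor. The first hour of room air is thus a time at which products of the hypoxic period, stress hormone targets and early targets of reoxygenation can be present together.

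Some listed markers of cortex were highest in the cortex arrays and others were not. Over the R1 and control arrays of each region, Tbr1, a transcription factor of deep cortical projection neurons, averaged 474 in cortex and 5.27 to 144 in the other 6 regions. Slc17a7, the main vesicular glutamate transporter of cortex, averaged 2022 in cortex and 123 to 1539 in the others. Over the same R1 and control arrays, the striatal dopamine receptors Drd1 and Drd2 averaged 170 and 90.4 in cortex, against 1606 and 1184 in striatum. Of the other listed markers of cortical neurons and layers, Camk2a, Nrgn, Emx1, Cux2, Lamp5, Rasgrf2 and Cplx3 were also highest in cortex. Bcl11b, Fezf2, Foxp2, Nxph4, Rorb, Syt6, Tle4, Neurod2 and Neurod6 were higher in some other region. Neurod6, for example, averaged 393 in cortex and 976 in hippocampus. Any 2 cortex arrays correlated at 0.970 to 0.986. Both replicate 2 arrays had the lowest median intensity of their group, 41.1 at R1 and 42.9 in control, where the other 4 arrays had 44.7 to 48.3. In bulk tissue, fewer cells of a type and less RNA per cell cannot be told apart.

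Falls outnumbered rises in cortex at R1. Against control, 32 transcripts were higher (0.0711% of those tested) and 110 were lower (0.244%), and these name 27 genes that rose and 94 that fell. Of the called transcripts, 129 name a single gene, 2 name several and 11 none. Rises lay between 0.42 and 1.37 on the log2 scale and falls between -1.17 and -0.40. On that scale 7 rises and 4 falls were of at least 2-fold. Since the scale understates the change of dim transcripts, further calls, Rbm15 among them, differed at least 2-fold in the intensities themselves. In each of the 142 called transcripts the 3 R1 arrays lay apart from the 3 control arrays, while over all transcripts tested 4.76% lay apart above control and 7.27% below. The calls rested on the pooled spread of the cortex arrays: with only the 6 arrays compared, limma called 0 higher and 0 lower, with 960 and 2132 at an unadjusted p under 0.05. The replicate number as a block, which the arrays bear out as a pairing, raised the counts to 70 higher and 208 lower, and with each array centred on its own median they were 21 higher and 17 lower, so that the share of falls was 44.7% there, 66.3% after quantile normalization (32 higher, 63 lower) and 77.5% as deposited.

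The count of falls was smaller on leaving out most of the single arrays, and smallest without 1 control array. The array of the second control replicate (control 2) was the highest of the controls in 76 of the 110 falls (69.1%), and in 27.3% of all transcripts tested. The falls were brighter than transcripts at large, with a median control intensity of 119 against 45.6. Without control 2 the counts were 10 higher and 22 lower, against 11 and 41 without control 1, 12 and 48 without R1 2, 16 and 41 without R1 1, 16 and 51 without R1 3, and 29 and 118 without control 3. At an unadjusted p under 0.05, 2620 transcripts were lower with all arrays and 2599 without control 2. The 6 omissions gave 2250 (without R1 2) to 2658 (without control 3). Of the 142 calls, 4 rises and 17 falls passed without any 1 of the 6 arrays. The rises were Ddit4, Txnip, Pim3 and Iffo2. The falls at named genes were Rbm15, Zfp950, Dcun1d5, Zfp84, Cep350, Katnbl1, Swt1, Papolg, Npy5r, Runx1t1, Zfp667, Zfp866, Mtf2, Lcor, Cnot6, Btbd7 and Mkks. Of these, Dcun1d5 was near background at the called probe set, at 4.02 to 12.7 at R1 and 27.3 to 34.2 in control. The brighter probe sets of Dcun1d5 gave 0.13 and 0.07, neither called.

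The best supported rise was that of Ddit4, which encodes REDD1, a stress protein that shuts down mTOR complex 1 in hypoxia and after glucocorticoids. Its intensities were 546, 703 and 637 at R1, against 217, 312 and 284 in control (log2 difference 1.18, SE 0.16, adjusted p = 0.00402). The lowest R1 array stood above the highest control array by a wide margin. Sgk1, a kinase of ion transport and cell survival that glucocorticoids induce, stood at 1266, 1343 and 1100.2 at R1, against 580.0, 447 and 669 in control (log2 difference 1.12, SE 0.17, adjusted p = 0.00702), again with the groups well apart. Among the alpha-arrestins, adaptors that take transporters and receptors off the cell surface, Txnip rose, and its protein also binds thioredoxin and lowers glucose uptake. Txnip measured 239, 302 and 270.2 at R1, against 143, 119 and 151 in control (log2 difference 0.90, SE 0.13, adjusted p = 0.00647), and its second probe set gave 0.97 (adjusted p = 0.0722). Arrdc3, a related arrestin that acts on the beta-adrenergic receptor, measured 331, 391 and 359 at R1, against 270.0, 232 and 219.8 in control (log2 difference 0.55, SE 0.10, adjusted p = 0.0172). In both arrestins each R1 array was above each control array. The calls of Ddit4 and Txnip held without any 1 array, while the highest adjusted p was 0.0521 for Sgk1 without control 2 and 0.0939 for Arrdc3 without control 2.

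Stress and survival regulators rose beside them. Pim3, a kinase that promotes survival and protein synthesis, measured 519, 569.9 and 448 at R1, against 291, 274 and 258 in control (log2 difference 0.86, SE 0.12, adjusted p = 0.00503). Gadd45b, a p38 and MEKK4 activator of the DNA damage response that also takes part in DNA demethylation in neurons, measured 141, 118 and 156 at R1, against 44.7, 73.6 and 48.9 in control (log2 difference 1.12, SE 0.19, adjusted p = 0.0122). For Gadd45b this was 1 of 3 probe sets, and the others gave 0.22 and -0.07, neither called. Nfkbia, the inhibitor that holds NF-kappaB in the cytoplasm and is itself an NF-kappaB and glucocorticoid target, measured 373, 405 and 337 at R1, against 193, 200.2 and 259 in control (log2 difference 0.74, SE 0.12, adjusted p = 0.0103), while its brightest probe set gave 0.29 (adjusted p = 0.335). Each of these 3 genes had its R1 arrays above all control arrays at the called probe set. Pim3 passed without any 1 array, and the highest adjusted p was 0.062 for Gadd45b without control 1 and 0.0743 for Nfkbia without control 2.

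Transcription factors and early genes made up a further group. Klf15, a Kruppel-like factor that glucocorticoids induce and that controls amino acid and glucose metabolism, measured 231, 171 and 189 at R1, against 124, 80.6 and 103 in control (log2 difference 0.85, SE 0.18, adjusted p = 0.0491). Ciart, also named Chrono, a repressor of the circadian activators CLOCK and BMAL1, measured 255, 237 and 229 at R1, against 151, 84.7 and 99.8 in control (log2 difference 1.04, SE 0.19, adjusted p = 0.0224). Control 1 was the highest control array for both genes and still lay below every R1 array. Apold1, an endothelial early response gene, was the tightest of these, at 132, 151 and 156 at R1, against 72.7, 68.5 and 73.2 in control (log2 difference 0.89, SE 0.14, adjusted p = 0.00912). The highest adjusted p on leaving out 1 array was 0.22 for Klf15 without control 2, 0.13 for Ciart without control 2 and 0.0558 for Apold1 without control 2. Klf15 also lost its call with 1 in place of 16 added before the logarithm (adjusted p = 0.0789).

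Genes of chromatin and transcription rose as well. Hmgb2, a DNA-bending chromatin protein, measured 86.6, 84.0 and 106 at R1, against 33.3, 25.6 and 36.5 in control (log2 difference 1.18, SE 0.21, adjusted p = 0.0172), and its other 2 probe sets gave 0.87 (adjusted p = 0.0716) and 0.82 (adjusted p = 0.0912) with the R1 arrays above the controls in both. Sap30, a subunit of the Sin3 histone deacetylase complex, measured 194, 205 and 203 at R1, against 117, 129 and 117 in control (log2 difference 0.66, SE 0.11, adjusted p = 0.0116), which makes it among the tightest rises. Polr3e, a subunit of RNA polymerase III, measured 179.9, 176 and 182 at R1, against 91.8, 94.4 and 115 in control (log2 difference 0.75, SE 0.14, adjusted p = 0.0242). Bend3, a repressor of heterochromatin, rose by 0.65 (adjusted p = 0.0239), from a dimmer probe set with 72.6 to 82.6 at R1 and 38.3 to 46.0 in control. Ankrd11, a chromatin regulator, rose by 0.80 at 1 probe set (adjusted p = 0.0256), but 6 others of its probe sets gave -0.33 to -0.0023, so its direction depended on the probe set. The highest adjusted p without 1 array was 0.108 for Hmgb2 without control 2, 0.0528 for Sap30 without R1 2, 0.115 for Polr3e without control 2, 0.129 for Bend3 without control 2 and 0.113 for Ankrd11 without control 1.

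The other named rises were spread over signaling, metabolism and glia. Iffo2, an intermediate filament family member, measured 220.4, 189 and 194 at R1, against 103, 115 and 97.3 in control (log2 difference 0.84, SE 0.13, adjusted p = 0.00855) and passed without any 1 array. Spsb1, an adaptor of a ubiquitin ligase, rose by 0.69 (adjusted p = 0.0268), and Chic2 by 0.54 (adjusted p = 0.0103), though the brightest Chic2 probe set gave -0.35 (adjusted p = 0.271), with its R1 arrays below all controls. Opalin, a protein of oligodendrocyte processes, measured 216, 228 and 206 at R1, against 167, 115 and 119.5 in control (log2 difference 0.65, SE 0.12, adjusted p = 0.0224), with control 1 between the other controls and R1. Thrsp, a lipogenic factor that thyroid hormone induces, rose by 0.45 (adjusted p = 0.0475), and Gpr146, an orphan receptor, by 0.45 (adjusted p = 0.0279). Optc, a small leucine-rich proteoglycan of the eye, was called near background, at 12.9, 12.0 and 20.0 at R1, against 5.47, 4.25 and 6.17 in control (log2 difference 0.53, SE 0.10, adjusted p = 0.0296). Further named rises were Gm34996, Mrpl15, Amn and Plekha2, at 0.42 to 0.89. Mrpl15 was called at 1 probe set (0.63), and its brighter probe sets gave -0.11 to 0.18, none called. The highest adjusted p without 1 array was 0.149 for Spsb1 without control 2, 0.0649 for Chic2 without control 2, 0.129 for Opalin without control 2, 0.167 for Thrsp without control 1, 0.158 for Gpr146 without control 2 and 0.144 for Optc without control 2.

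**Figure D1:**
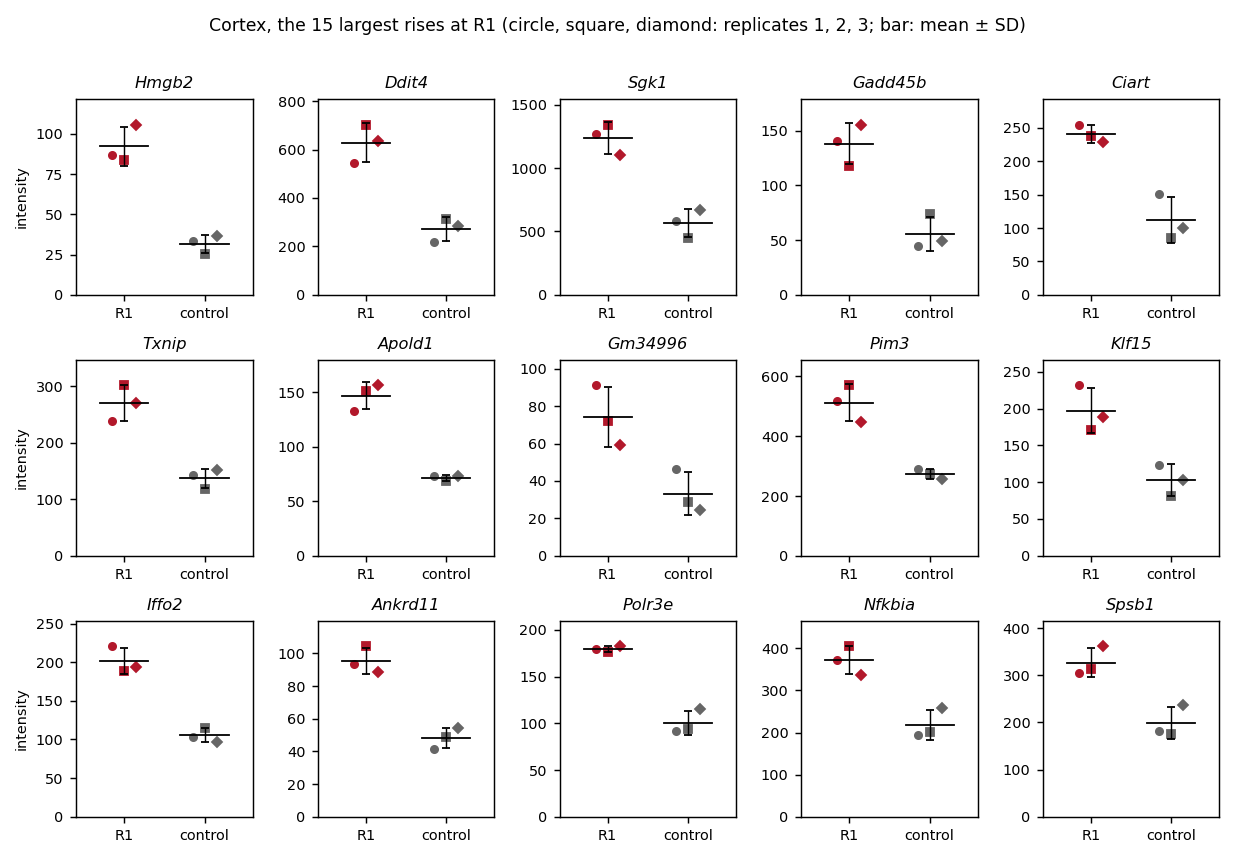
Each panel gives the intensity of 1 gene in cortex on the 3 R1 arrays (red, left) and the 3 control arrays (grey, right), with circle, square and diamond for replicates 1, 2 and 3 and the bar for mean ± SD, for the 15 largest rises at named genes. The groups do not overlap in any panel, from Ddit4 with 546 to 703 at R1 and 217 to 312 in control to Spsb1 with 304 to 361 at R1 and 176 to 237 in control.

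Promoter letters of 5 of these genes are shown because they hold, within 250 bases before the annotated start, a short motif known from the pathways above: the E-box CACGTG, which the clock activators bind, the core ACGTG, which HIF binds and which every CACGTG contains, or the forkhead motif GTAAACA, which FOXO factors bind. The sequences are from RefSeq (GRCm38.p6), in the direction of the gene, with the motif in capitals. They lie at chr3:95882254-95882353 (minus strand) for Ciart, chr6:90462336-90462426 (plus) for Klf15, chr10:80929881-80929931 (plus) for Gadd45b, chr10:59951930-59951980 (minus) for Ddit4 and chr3:96557812-96557861 (plus) for Txnip.
Ciart: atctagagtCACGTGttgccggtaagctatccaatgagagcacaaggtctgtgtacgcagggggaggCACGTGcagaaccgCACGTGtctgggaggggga
Klf15: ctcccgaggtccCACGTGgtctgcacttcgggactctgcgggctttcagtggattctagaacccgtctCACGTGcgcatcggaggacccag
Gadd45b: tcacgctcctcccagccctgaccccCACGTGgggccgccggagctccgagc
Ddit4: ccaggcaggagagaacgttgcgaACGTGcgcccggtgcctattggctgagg
Txnip: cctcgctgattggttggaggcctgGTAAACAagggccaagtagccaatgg
Of the 27 genes that rose, 25 had a promoter in the RefSeq table, and CACGTG, on both strands alike, was in 5 of them (20%): Ciart with 3 copies, Klf15 with 2, and Gadd45b, Amn and Bend3. Of the 94 genes that fell, 77 had a promoter and 5 held it (6.49%), against 7.56% of the 14452 genes tested that had a promoter and 6.05% of all 27025 promoters. ACGTG, searched on both strands, was in 10 of the 25 (40%) and 19 of the 77 (24.7%), against 19.8% of the genes tested and 16.6% of all promoters. GTAAACA was in 1 of the 25, Txnip (4%), and 2 of the 77 (2.6%), against 3.09% of all promoters. The cAMP motif TGACGTCA, the AP-1 motif TGACTCA and the C/EBP motif TTATGTAA were in 0 of the 25 and in 2, 1 and 1 of the 77, against 1.62%, 4.43% and 0.862% of all promoters. A match describes the letters of this window and was not tested as a binding site.

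Regulators of RNA were among the falls with the smallest p. The groups used from here on for the falls were formed after their values were seen. Rbm5, a splicing regulator of exon choice in apoptosis genes, measured 325, 396 and 334 at R1, against 622, 671 and 618 in control (log2 difference -0.83, SE 0.14, adjusted p = 0.00988), and a second probe set fell by 0.59 (adjusted p = 0.0415). Rbm15, a subunit that guides the m6A RNA methyltransferase, measured 27.6, 22.4 and 21.1 at R1, against 64.8, 66.9 and 55.3 in control (log2 difference -0.98, SE 0.14, adjusted p = 0.00503), and no R1 array came near the control arrays. Cbll1, also named Hakai, another subunit of that complex, had a small fall of 0.40 (adjusted p = 0.0499). Papolg, a nuclear poly(A) polymerase, measured 101, 104 and 90.4 at R1, against 149.9, 193 and 186 in control (log2 difference -0.74, SE 0.10, adjusted p = 0.00393). Cnot6, a deadenylase of the CCR4-NOT complex, fell at 2 probe sets, the brighter at 373, 369 and 349.6 at R1, against 534, 543 and 527 in control (log2 difference -0.53, SE 0.08, adjusted p = 0.00778). Naf1, a factor of box H/ACA ribonucleoprotein assembly, fell by 0.54 (adjusted p = 0.0122), and Nup98, a nuclear pore protein, by 0.60 (adjusted p = 0.0306). Rbm15, Papolg and Cnot6 passed without any 1 array, and the highest adjusted p was 0.0648 for Rbm5 without control 2, 0.224 for Cbll1 without control 2, 0.0862 for Naf1 without control 2 and 0.17 for Nup98 without control 2.

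Genes of chromatin proteins were among the falls, as others were among the rises. Mtf2 and Eed are subunits of Polycomb repressive complex 2, which methylates histone H3. Mtf2 was called at 2 probe sets, and the brighter measured 222, 193 and 209 at R1, against 327, 414 and 296 in control (log2 difference -0.68, SE 0.10, adjusted p = 0.00702). The other, at 42.6 to 44.7 at R1 and 77.2 to 90.7 in control, gave -0.75 (adjusted p = 0.0122). Eed fell by 0.52 (adjusted p = 0.0478). Other falls were Runx1t1, a transcriptional corepressor, at 2 probe sets (-0.73 and -0.57, adjusted p = 0.00554 and 0.0155), Lcor, a nuclear receptor corepressor (-0.61, adjusted p = 0.00702), Arid4a, a retinoblastoma-binding protein (-0.63, adjusted p = 0.0404), Chd1, a chromatin remodeler (-0.71, adjusted p = 0.0423; other probe sets -0.54, -0.061 and 0.67, the last with its R1 arrays above all controls), Phf8, a histone demethylase (-0.41, adjusted p = 0.0485), Ino80d, a subunit of the INO80 remodeler (-0.41, adjusted p = 0.0239), Asxl2, a Polycomb-associated protein (-0.45, adjusted p = 0.0475), and Lrif1, a partner of heterochromatin protein HP1 (-0.77, adjusted p = 0.0194). Senp7, a protease that removes SUMO chains, fell at 2 probe sets (-0.81 and -0.61, adjusted p = 0.0145 and 0.0305). In each of these transcripts the R1 arrays lay below all controls. Mtf2, Runx1t1 and Lcor passed without any 1 array, and the highest adjusted p was 0.216 for Eed without control 2, 0.196 for Arid4a without control 2, 0.159 for Chd1 without R1 1, 0.18 for Phf8 without control 1, 0.112 for Ino80d without control 2, 0.177 for Asxl2 without R1 1, 0.12 for Lrif1 without control 2 and 0.105 for Senp7 without control 2.

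Zinc-finger genes were numerous among the falls. Of 612 probe sets of 329 genes with a numbered Zfp symbol, most of which encode DNA-binding repressors with a KRAB domain, 12 were lower (1.96%, against 0.244% of all transcripts) and 0 higher, with 70.6% below 0 against 53.4% of all transcripts. Their median was -0.12, and that of all transcripts -0.01. This family was picked after its values were seen. Zfp950 measured 54.4, 84.0 and 78.1 at R1, against 177, 149 and 142 in control (log2 difference -0.98, SE 0.15, adjusted p = 0.00702), and Zfp84 52.97, 53.8 and 66.3 at R1, against 112, 120.2 and 101 in control (log2 difference -0.79, SE 0.10, adjusted p = 0.00393). Zfp667 was the steadiest, at 134, 129 and 129 at R1, against 226, 231 and 213 in control (log2 difference -0.71, SE 0.10, adjusted p = 0.00393). For each of the 3 genes the groups lay far apart, and each passed without any 1 array, as did Zfp866. Zfp418 fell by 1.14 (adjusted p = 0.00808), but with 4.40 to 13.2 at R1 it was close to background. The other 7 were Zfp994, Zfp141, Zfp322a, Zfp708, Zfp160, Zfp329 and Zfp58. Zmym1, a zinc-finger gene of another type, had the second largest fall, at 56.9, 64.7 and 56.4 at R1, against 113, 245 and 127 in control (log2 difference -1.16, SE 0.22, adjusted p = 0.0256), where control 2 stood at about the level of the other controls added together. The highest adjusted p without 1 array was 0.0621 for Zfp418 without control 2 and 0.118 for Zmym1 without control 2.

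Klf6, Ddit4l and Hes5 fell among regulators of growth and fate. Klf6, a Kruppel-like factor and early response gene of injury, measured 161, 142 and 138 at R1, against 249, 258 and 239 in control (log2 difference -0.70, SE 0.11, adjusted p = 0.00972), and its other 4 probe sets gave -0.52 to -0.39, none called. Ddit4l, which encodes REDD2, a paralog of Ddit4 that also restrains mTOR, measured 335, 308 and 309.7 at R1, against 555, 505 and 491 in control (log2 difference -0.68, SE 0.11, adjusted p = 0.00855). The 2 REDD genes thus moved in opposite directions, each with its groups apart. Hes5, a Notch-driven repressor that keeps neural progenitors and astrocyte precursors undifferentiated, measured 24.3, 44.3 and 38.6 at R1, against 81.1, 70.5 and 82.2 in control (log2 difference -0.88, SE 0.19, adjusted p = 0.0486), and it was the only call lost with the replicate block (adjusted p = 0.0524). Of 2 other Notch genes, Numb, an inhibitor of Notch, fell by 0.71 (adjusted p = 0.0475), and Jag1, a ligand, fell by 0.71 (adjusted p = 0.0485) at a dim probe set, while the brightest Jag1 probe set gave -0.12. Ahr, the aryl hydrocarbon receptor, a partner of ARNT as HIF is, fell by 0.61 (adjusted p = 0.013), with 60.0 to 68.7 at R1 and 101 to 120.0 in control. Ccng2, a cyclin that FOXO and HIF induce, fell by 0.43 (adjusted p = 0.0474). The highest adjusted p without 1 array was 0.0617 for Klf6 without control 2, 0.0509 for Ddit4l without control 1, 0.208 for Hes5 without R1 1, 0.196 for Numb without control 2, 0.216 for Jag1 without control 2, 0.0687 for Ahr without R1 2 and 0.186 for Ccng2 without R1 1, and Klf6 also missed the threshold with each array centred on its median (adjusted p = 0.0770).

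Neuronal receptors and adhesion molecules were among the falls too. Npy5r, a receptor of neuropeptide Y, measured 54.8, 45.6 and 55.8 at R1, against 106, 86.7 and 98.7 in control (log2 difference -0.73, SE 0.11, adjusted p = 0.00568), and passed without any 1 array. Epha7, an ephrin receptor of axon guidance, measured 54.8, 93.4 and 68.2 at R1, against 166, 203 and 120.0 in control (log2 difference -1.02, SE 0.18, adjusted p = 0.0168), a call of 1 of its 4 probe sets, where the others gave -0.47, -0.25 and 0.06. St8sia4, the enzyme that adds polysialic acid to NCAM, measured 86.9, 107 and 67.8 at R1, against 159.8, 182 and 130.5 in control (log2 difference -0.75, SE 0.14, adjusted p = 0.0187). All 3 had their R1 arrays below all controls. Kcnj9, which encodes the GIRK3 potassium channel, fell by 0.50 (adjusted p = 0.0498). Kcnj6, the GIRK2 channel, fell by 0.92 (adjusted p = 0.0385) at a probe set that stood at 4.16 to 4.75 at R1, near background, and its brightest probe set gave -0.19. Cdh11, a cadherin, fell by 0.47 (adjusted p = 0.0268), and Arpp19, a phosphatase inhibitor that is abundant in brain, by 0.61 (adjusted p = 0.0239) at 1 of 3 probe sets, where the others, the brightest among them, gave -0.0274 and -0.026. The highest adjusted p without 1 array was 0.11 for Epha7 without control 2, 0.114 for St8sia4 without control 2, 0.199 for Kcnj9 without control 2, 0.143 for Kcnj6 without control 2, 0.157 for Cdh11 without control 2 and 0.108 for Arpp19 without R1 3.

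Single genes of cilia and centrosomes, DNA repair and ubiquitin conjugation fell as well. Cep350, a centrosome protein, measured 159.6, 177 and 169.6 at R1, against 275, 345 and 308 in control (log2 difference -0.81, SE 0.11, adjusted p = 0.00393), and Mkks, a chaperonin-like protein of the ciliary base, was close to even on the control arrays, at 202, 214 and 226 at R1, against 305, 306 and 304 in control (log2 difference -0.48, SE 0.07, adjusted p = 0.00709). Ttc21b and Ttc26, subunits of intraflagellar transport, fell by 0.62 and 0.67 (adjusted p = 0.0187 and 0.0224), and Katnbl1, a regulator of the microtubule-severing katanin, fell at 2 probe sets (-0.76 and -0.57, adjusted p = 0.00393 and 0.0239). Helb, a DNA helicase, had the largest fall, 1.17 (adjusted p = 0.0499), but from 5.23 to 11.2 at R1 and 30.6 to 51.7 in control. Shprh, a ubiquitin ligase of the replication fork, fell by 0.82 (adjusted p = 0.01), and Polk, a DNA polymerase that bypasses lesions, by 0.56 (adjusted p = 0.0455). Usp42, a deubiquitinase, and Fbxl20, an F-box protein, fell by 0.47 and 0.63 (adjusted p = 0.0355 and 0.0187). Ern1, which encodes the unfolded protein sensor IRE1, fell by 0.54 (adjusted p = 0.0127), and Ptpn12, a tyrosine phosphatase, at 3 probe sets by 0.59 to 0.75. The other large falls were Taf5, a subunit of transcription factor TFIID (-0.99, adjusted p = 0.0498), Sh3d19, an SH3 adaptor (-0.83, adjusted p = 0.0103), and Ctla4, a T cell checkpoint receptor (-0.90, adjusted p = 0.0268), dim at 3.93, 2.08 and 3.35 at R1, against 20.8, 11.5 and 28.8 in control. Cep350, Mkks and the brighter Katnbl1 probe set passed without any 1 array, and the highest adjusted p was 0.0918 for Ttc21b without control 2, 0.123 for Ttc26 without control 2, 0.169 for Helb without R1 2, 0.0741 for Shprh without control 2, 0.167 for Polk without control 1, 0.16 for Usp42 without control 2, 0.112 for Fbxl20 without control 2, 0.0901 for Ern1 without control 2, 0.112 for Ptpn12 without control 2, 0.207 for Taf5 without control 2, 0.062 for Sh3d19 without R1 1 and 0.104 for Ctla4 without R1 2.

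**Figure D2:**
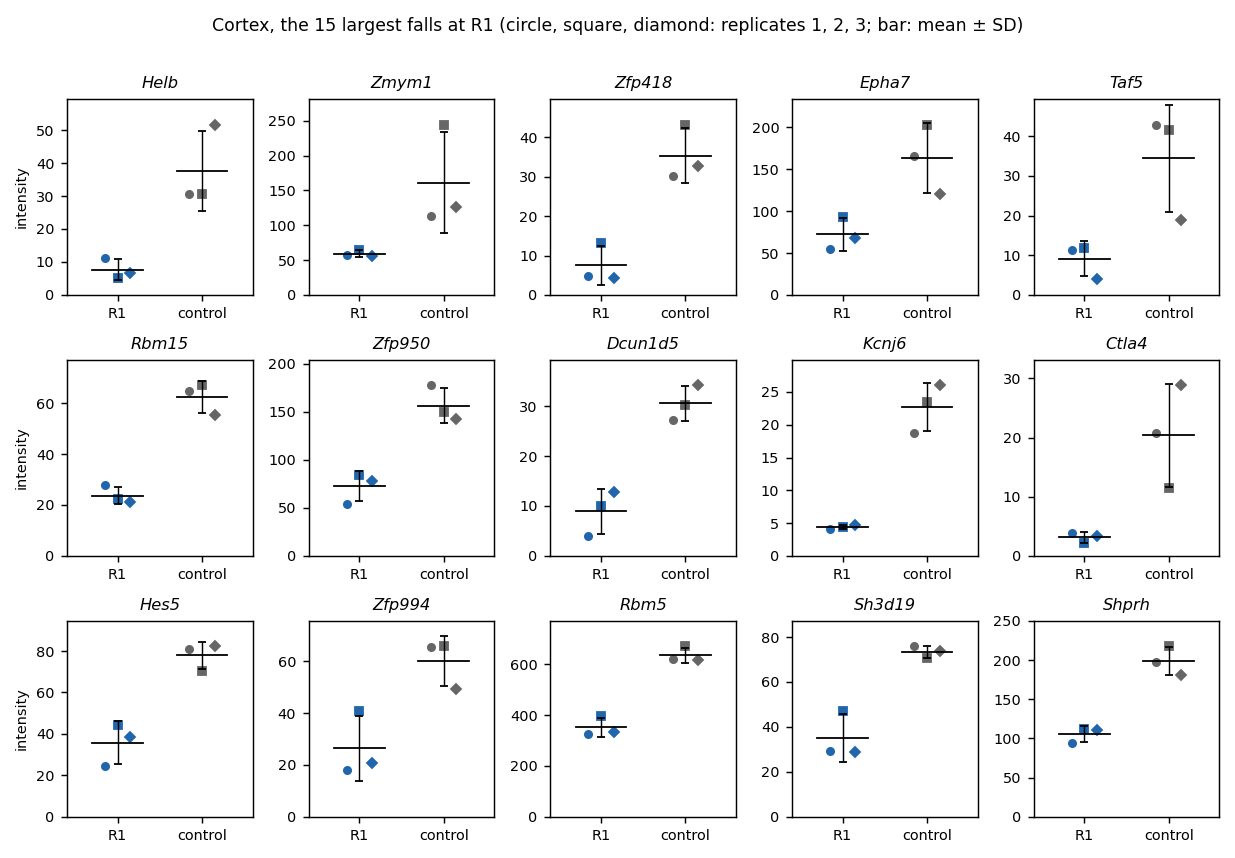
Each panel gives the intensity of 1 gene in cortex on the 3 R1 arrays (blue, left) and the 3 control arrays (grey, right), with circle, square and diamond for replicates 1, 2 and 3 and the bar for mean ± SD, for the 15 largest falls at named genes. The groups do not overlap in any panel, and control 2, the square, stands out in Zmym1, at 245 against 113 and 127 on the other control arrays.

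Probe sets of one gene often gave unequal answers. Of the called genes, 89 had more than 1 probe set, 7 had at least 2 that were called, and of the 182 others of these genes' probe sets that were not called, 150 (82.4%) lay on the same side of 0. Among the falls named above, another probe set of Nup98 gave 0.38, one of Phf8 gave 0.22 and one of Eed gave 0.17, and the brightest probe sets of Helb, Lcor and Fbxl20, none of them called, gave -0.20, -0.16 and -0.14.

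Over lists of pathway genes, each gene taken at its brightest probe set, calls were few. Of 576 listed genes, 9 were higher and 6 lower (2.6%, against 0.315% of all transcripts). These shares are of unlike sets, since that of all transcripts includes dim probe sets and those with no gene name. The lists were also drawn up with earlier results of these data known. Genes that glucocorticoids induce all lay on one side: 25 of 25 were above 0, with a median of 0.31 against -0.01 over all transcripts. Of these, 12 had their R1 arrays above all controls, and 2 were called, Sgk1 and Ddit4. The list leaves out the called Klf15, and its member Nfkbia was called at a probe set other than the brightest. Over all transcripts, 53.4% lay below 0 and 4.76% had their R1 arrays above all controls. Cebpd, a transcription factor of the acute phase, measured 65.1, 124 and 98.5 at R1, against 25.0, 33.4 and 50.8 in control (log2 difference 1.09, SE 0.24, adjusted p = 0.0567), and Errfi1, an inhibitor of the EGF receptor, 278, 302 and 277 at R1, against 206, 225 and 194 in control (log2 difference 0.43, SE 0.09, adjusted p = 0.0566). With the replicate block the adjusted p was 0.0126 for Cebpd, 0.0172 for Errfi1 and 0.0372 for Arrdc2, an alpha-arrestin at 0.85. Fkbp5, a chaperone that dampens the glucocorticoid receptor, overlapped between groups, at 417, 308 and 408 at R1, against 228, 222 and 410.2 in control (log2 difference 0.42, SE 0.19, adjusted p = 0.523). Members named here and in the next paragraphs that were not called were picked after their values were seen, other than the brightest of each list.

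HIF targets were mostly above control but seldom called. Of 33 measured, 25 lay above 0 with a median of 0.15, 1 was higher (Ddit4) and 1 lower (Ccng2). For this and the next lists, 53.4% of all transcripts lay below 0, with a median of -0.01. That share includes dim probe sets and those with no gene name. The lean was not particular to HIF targets, since 12 of 16 autophagy genes and 39 of 47 respiratory chain genes also lay above 0. Among clock genes 10 of 21 did, and among splicing regulators 16 of 39. Vegfa, the vessel growth factor, measured 203, 219.6 and 234 at R1, against 139, 160.1 and 114 in control (log2 difference 0.62, SE 0.15, adjusted p = 0.103), with the R1 arrays above all controls. Cdkn1a, the cell cycle inhibitor p21, measured 226, 355 and 336 at R1, against 109, 167 and 182 in control (log2 difference 0.93, SE 0.27, adjusted p = 0.184), and Edn1, the vasoconstrictor endothelin-1, 42.9, 57.8 and 16.5 at R1, against 11.4, 9.10 and 12.4 in control (log2 difference 0.95, SE 0.27, adjusted p = 0.165). These stood apart from control on each array, but the spread was too large for a call. Adm, the vasodilator adrenomedullin, overlapped control, with a difference of 0.44 (SE 0.36). Among 25 genes of glycolysis 23 lay above 0, with a median of 0.10 and 0 called, against 6 at an unadjusted p under 0.05, and Ldha, the lactate dehydrogenase subunit, measured 1629, 1626 and 1600.4 at R1, against 1319.7, 1451 and 1456 in control (log2 difference 0.20, SE 0.07, adjusted p = 0.324). Of 47 nuclear genes of the respiratory chain, 39 lay above 0 with a median of 0.06, and 0 were called, against 2 at an unadjusted p under 0.05.

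Immediate early genes gave no common direction at R1. Of 40 measured, 26 lay above 0 with a median of 0.07, while 53.4% of all transcripts lay below 0. Of the 40, 1 was higher (Apold1) and 1 lower (Klf6). Arc, a synaptic early gene of neuronal activity, measured 358, 284 and 331 at R1, against 89.5, 1074 and 129 in control, and Fos 406, 329 and 401 at R1, against 243, 570.0 and 181 in control. In both, control 2 lay above every R1 array and the other controls below. Control 2 was the highest control in 34 of the 40 genes and the highest of all 6 arrays in 23. Without control 2 the median was 0.20, and 0 genes were called, with 11 higher at an unadjusted p under 0.05. Egr1, which encodes an early zinc-finger factor, overlapped, at 3019, 1988 and 2674 at R1, against 2316, 3085 and 1912 in control (0.08, SE 0.21). Bdnf, a neurotrophin that activity induces, stood at 118, 100.2 and 108 at R1, against 159, 179 and 142 in control (log2 difference -0.49, SE 0.12, adjusted p = 0.101), with the R1 arrays below all controls.

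In the remaining lists single genes moved. Of 39 splicing regulators Rbm5 alone was called, with 23 below 0 and 16 above. Clk1, a kinase of SR proteins, measured 134, 144 and 138 at R1, against 211, 213 and 226 in control (log2 difference -0.59, SE 0.14, adjusted p = 0.0912), and the SR protein Srsf5 lay the other way, at 1749, 1552 and 1079.5 at R1, against 1019, 727 and 833 in control (log2 difference 0.74, SE 0.19, adjusted p = 0.125). With the replicate block Srsf5 passed (adjusted p = 0.0127), as did the gene of the cold-inducible RNA-binding protein Cirbp (0.61, adjusted p = 0.0454). Of 21 clock genes Ciart alone was called, and the core repressors Per1 and Per2 stood at 0.36 and -0.48, neither called. Of 14 listed histone demethylases, a list that leaves out the called Phf8, 9 lay below 0 and 6 had their R1 arrays below all controls, with a median of -0.18 and 0 called, against 5 at an unadjusted p under 0.05. The shares over all transcripts were 53.4% below 0 and 7.27% with the R1 arrays below all controls. Of 19 FOXO factors and targets Txnip and Klf15 were higher and Ccng2 lower, and of 12 members of the C/EBP, Pim and Trib families Pim3 was higher. The replicate block added Cebpa (0.61, adjusted p = 0.0454), Tob2 (0.46, adjusted p = 0.0392) and the potassium channel gene Kcnv1 (-0.49, adjusted p = 0.0472). No listed member was called among heat shock, unfolded protein (a list without the called Ern1), NRF2, p53, NF-kappaB, MAP kinase feedback, inflammatory, adenosine, glutamate receptor, GABA, autophagy, neuropeptide, Id and Cited, vessel, corticoid receptor or HIF subunit genes, each gene at its brightest probe set, of which 0 to 4 per list were higher and 0 to 3 lower at an unadjusted p under 0.05. Nfkbia, on the NF-kappaB list, was called at another probe set. Of each list, the brightest member that was not called lay between -0.44 for Nr3c1, the glucocorticoid receptor, and 0.31 for Klf9, a Kruppel-like factor that this receptor induces. Among these, Hspa8, the constitutive HSC70 chaperone, stood at -0.14, the glycolytic Pgk1 and Aldoa at 0.07 and 0.04, and Calr, a chaperone of the endoplasmic reticulum, at 0.10.

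**Figure D3:**
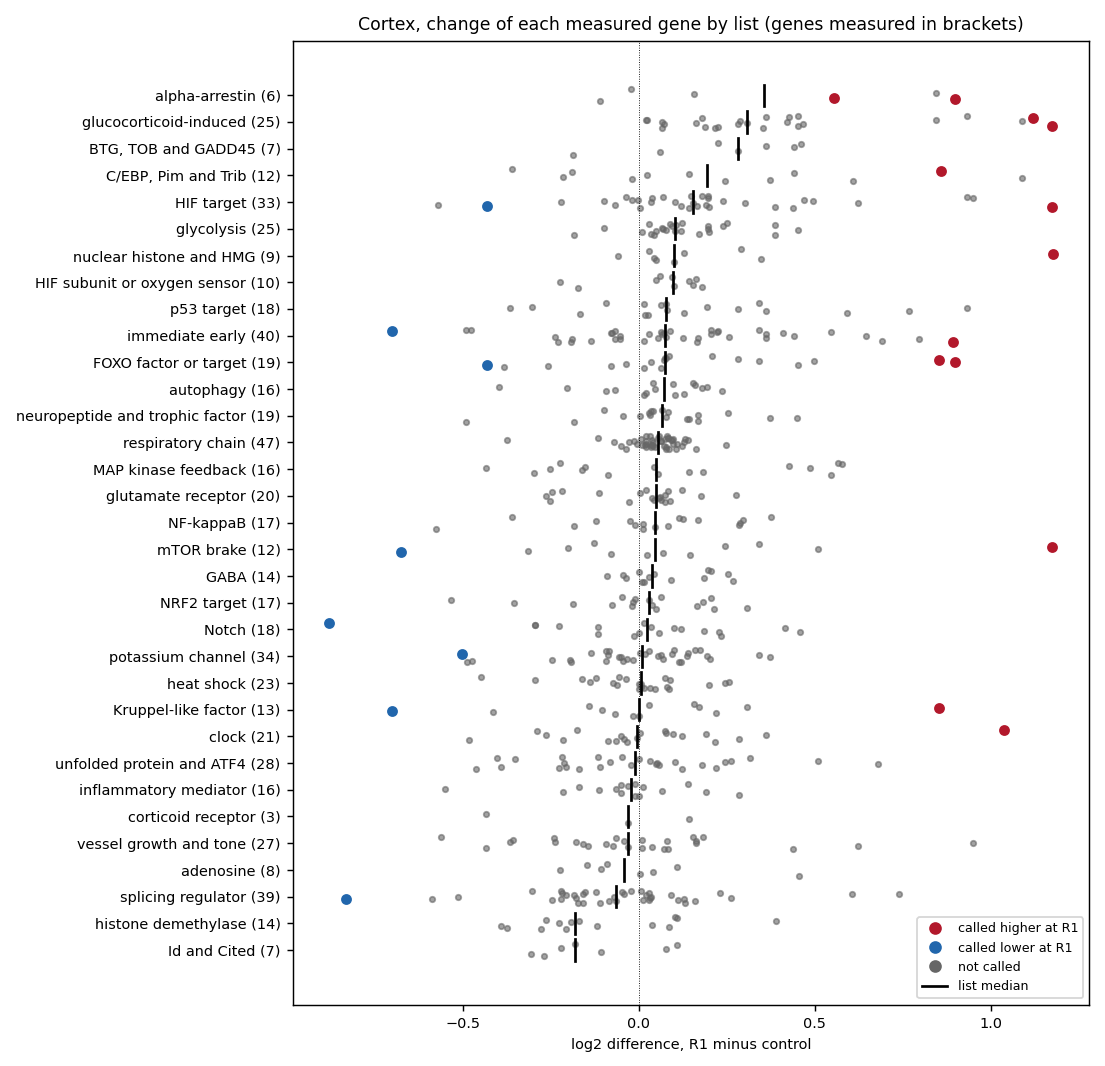
Each point is 1 gene in cortex, placed by its log2 difference between R1 and control (x axis) in the row of its list, with red for called higher, blue for called lower, grey for not called and a bar for the list's median; the number of genes measured is in brackets. Medians run from -0.18 for histone demethylases and for Id and Cited genes to 0.35 for alpha-arrestins, and called genes are single points at the ends of their rows.

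Set directly against the end of hypoxia, few transcripts were called after the first hour of room air. Against H3, 3 transcripts were higher at R1 (0.00666%) and 6 were lower (0.0133%), with 2816 at an unadjusted p under 0.05. Depp1, a FOXO-induced regulator of autophagy, measured 57.6, 50.0 and 17.7 at R1, against 262, 267 and 249.5 at H3 (log2 difference -2.33, SE 0.30, adjusted p = 0.00386), and control arrays had 14.6 to 22.6. H3f3b, a gene of the histone variant H3.3, measured 31.2, 27.5 and 42.0 at R1, against 108, 98.4 and 100.3 at H3 (log2 difference -1.26, SE 0.15, adjusted p = 0.00219), with 21.3 to 28.7 in control. Neither was called against control at these probe sets, and for each gene 1 R1 array lay within the control range and 2 lay above it. A probe set that the paper assigns to H3f3a and H3f3b together was called higher at R1 than in control (log2 difference 0.47, adjusted p = 0.0187). Qk, an RNA-binding protein of glial splicing, measured 139, 112 and 128 at R1, against 239.6, 248 and 215 at H3 (log2 difference -0.82, SE 0.12, adjusted p = 0.0146). The other 3 falls name no gene. Tob1, an antiproliferative adaptor of deadenylation, was higher, at 371, 346 and 347 at R1, against 234, 235 and 248 at H3 (log2 difference 0.54, SE 0.09, adjusted p = 0.0253), and its control arrays had 297 to 373. Optc, dim throughout, rose by 0.64 (adjusted p = 0.0327), and the last rise names no gene. With only the 6 arrays of this comparison limma called 0 in either direction, with 992 higher and 1607 lower at an unadjusted p under 0.05, and leaving out 1 array gave 0 (without R1 1, R1 3 or H3 1) to 3 higher, 1 of them without H3 2, and 4 to 7 lower. R1 arrays are shared between this comparison and that with control, so each is given with its own values.

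Some of the rises at R1 had been called at H3 already and others had not. At H3, 44 transcripts were higher than in control (0.0977%) and 61 lower (0.135%), and since both comparisons use the same control arrays the values are given side by side. Against control, Ddit4 stood at 1.18 at R1 and 1.69 at H3, Txnip at 0.90 and 1.26, Nfkbia at 0.74 and 1.12, Sgk1 at 1.12 and 1.24, and Apold1 at 0.89 and 1.22, all called at H3. By contrast, Gadd45b stood at 1.12 at R1 and 0.42 at H3, Ciart at 1.04 and 0.54, Iffo2 at 0.84 and 0.50, and Sap30 at 0.66 and 0.34, none called at H3. Among the falls, Klf6 stood at -0.70 at R1 and -0.78 at H3 (adjusted p = 0.0039), while Ddit4l stood at -0.68 at R1 and -0.12 at H3, Mtf2 at -0.68 and -0.29 at its brighter probe set, and Rbm5 at -0.83 and -0.35, none of these 3 called at H3. None of these genes passed the direct test of R1 against H3.

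By 3 h in room air few transcripts were called against control, with 2599 at an unadjusted p under 0.05. The comparison of R3 with R1 was added after the values were seen. It shares the R1 arrays with the comparison of R1 with control, from whose calls the genes named below were taken. Part of their return toward control can come from that choice, which was not tested. At R3, 98 transcripts were higher than at R1 (0.218%) and 20 were lower (0.0444%), and set against control 2 transcripts were higher (0.00444%) and 3 lower (0.00666%) at R3, 1 was lower at R6 (0.00222%), and 0 differed at R12 and R24 (2418 and 1890 at an unadjusted p under 0.05). Ddit4 was lower at R3 than at R1 by 1.27 on the log2 scale (adjusted p = 0.00229), Sgk1 by 1.36 (adjusted p = 0.00229), Apold1 by 0.88 (adjusted p = 0.0115) and Pim3 by 0.76 (adjusted p = 0.00907). Papolg was higher at R3 than at R1 by 0.93 (adjusted p = 7.90e-04), Rbm15 by 1.02 (adjusted p = 0.0029), Klf6 by 0.75 (adjusted p = 0.0068) and Mtf2 by 0.72 (adjusted p = 0.00409). At R3 these 4 genes stood at 0.19, 0.04, 0.05 and 0.04 from control. Ddit4 and Sgk1 were at 0.70 and 0.73 above control at R6, neither called, and Thrsp and Plekha2 stood at 0.61 and 0.46 above control at R3, against 0.45 and 0.42 at R1. The replicate block gave 174 higher and 34 lower at R3, median centring 27 and 12, and leaving out 1 array 13 (without R3 2) to 91 higher and 4 (without R3 1 or R3 2) to 21 lower, with 7 to 11 lower and 32 to 40 higher without 1 of the R1 arrays and 20 higher without R3 1.

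**Figure D4:**
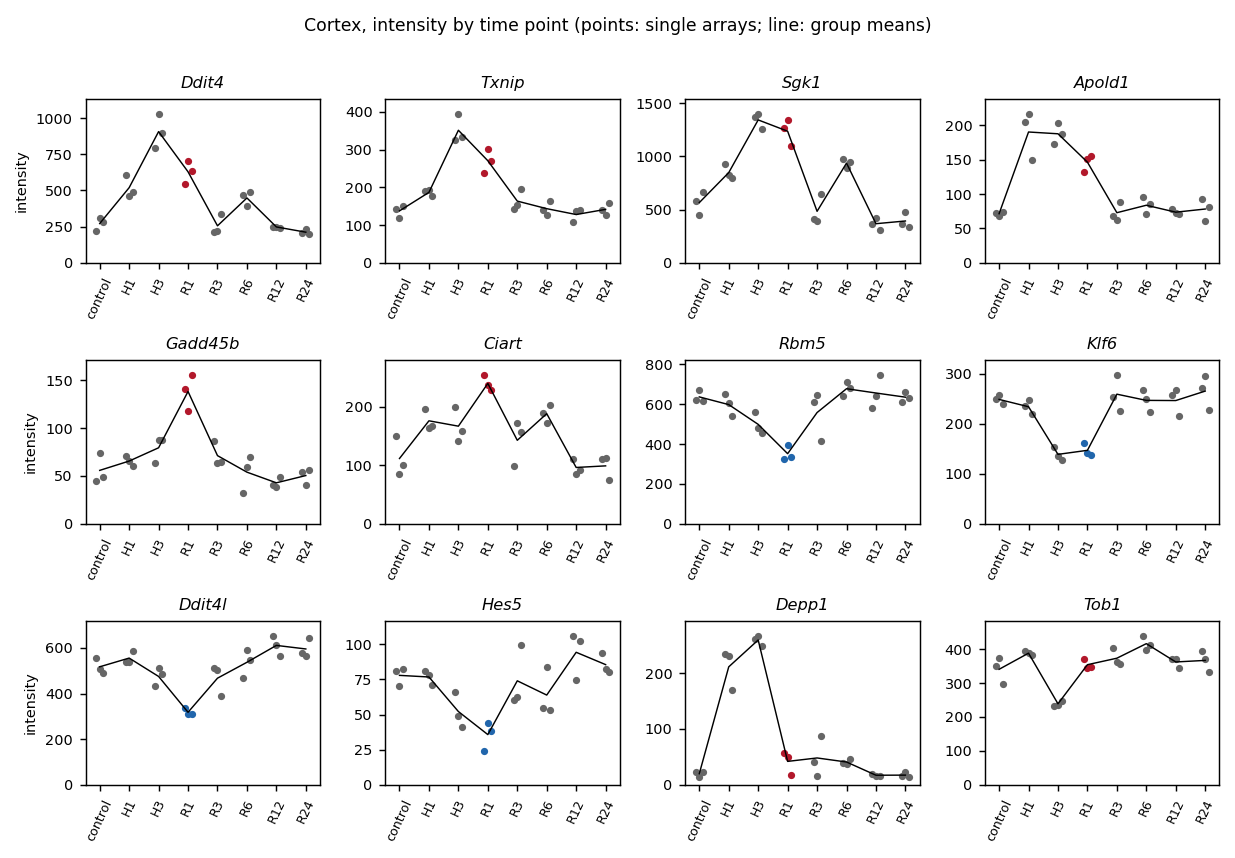
Each panel gives the intensity of 1 gene in cortex (y axis) at control, H1, H3 and R1 to R24 (x axis), with a point for each array, coloured at R1 (red for called higher, blue for called lower, or for Depp1 and Tob1 by the sign of the difference), and a line through group means. Depp1 is at 17.7 to 57.6 at R1 and at 249.5 to 267 at H3, its peak, Gadd45b and Ciart are highest at R1, and Rbm5 and Ddit4l are lowest there.

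The same hour of reoxygenation was compared over the 7 regions. Elsewhere, the transcripts higher at R1 than in control were 43 in hippocampus (0.0955% of those tested), 54 in striatum (0.12%), 68 in thalamus (0.151%), 47 in midbrain (0.104%), 34 in pons and medulla (0.0755%) and 220 in cerebellum (0.488%). Lower were 102 (0.226%), 138 (0.306%), 107 (0.238%), 47 (0.104%), 17 (0.0377%) and 266 (0.591%) in the same order. Of the 32 rises in cortex, 16 (50%) were also called higher in hippocampus, where they made up 37.2% of the rises, 18 (56.2%) in cerebellum (8.18% of its rises) 9 (28.1%) in midbrain (19.1% of its rises) and 9 in the pons with the medulla (26.5%). Of the 110 falls, 42 (38.2%) were also called lower in hippocampus (41.2% of its falls), 38 (34.5%) in striatum (27.5%), and 6 (5.45%) in pons and medulla (35.3%). In no region was a cortex call met by a call in the opposite direction. The regions came from the same mice by the study's methods, so that they do not repeat the experiment.

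Called in all 7 regions were Hmgb2, Txnip, Polr3e and a transcript with no gene name among the rises, and Rbm5, St8sia4 and Zfp866 among the falls. Hmgb2 stood at 1.18 in cortex and at 1.08 to 1.59 in the other regions, and Rbm5 at -0.83 in cortex and at -0.86 to -0.68 elsewhere. Called in cortex alone were 10 rises and 42 falls. Sap30 stood at 0.66 in cortex and 0.15 to 0.34 elsewhere, Iffo2 at 0.84 and -0.20 to 0.53, Klf6 at -0.70 and -0.30 to 0.19, and Mtf2 was called in 1 other region at its brighter probe set. These differences were tested in 1 fit over all arrays of the 7 regions, with the mouse as a random block. The mouse was taken from the replicate number, which the labels do not state to mark a mouse. Against the mean of the other 6 regions 0 transcripts differed, with 2235 at an unadjusted p under 0.05, and against hippocampus 0, with 2015. Klf6 had the smallest p among the cortex calls (difference -0.61, SE 0.12, adjusted p = 0.0700). Ahr, at -0.61 in cortex and -0.62 in hippocampus but -0.17 to 0.08 in the others, gave -0.49 (SE 0.12, adjusted p = 0.210). Of the 142 cortex calls, 59 had an unadjusted p under 0.05 against the other regions, and 0 passed once adjusted, so none is shown to be particular to cortex. Leaving out 1 cortex array gave 1 to 5 transcripts that differed from the other regions, 5 of them without R1 1 and 4 each without R1 3 and without control 3.

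Against striatum 1 transcript differed (0.00222%), with 2435 at an unadjusted p under 0.05. It was Cd274, which encodes PD-L1, a ligand that restrains T cells, at 2.72, 10.5 and 6.15 at R1, against 13.8, 17.8 and 36.9 in control in cortex. In cortex the difference was -0.76 (adjusted p = 0.219) and in striatum 0.91 (adjusted p = 0.163), and the interaction was -1.67 (SE 0.32, adjusted p = 0.0295). All values lay near background, and the call was lost without R1 replicate 1 (adjusted p = 0.197), without control replicate 3 (adjusted p = 0.169), with no random block (adjusted p = 0.0549) and with only R1 and control arrays in the fit (adjusted p = 0.536).

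**Figure D5:**
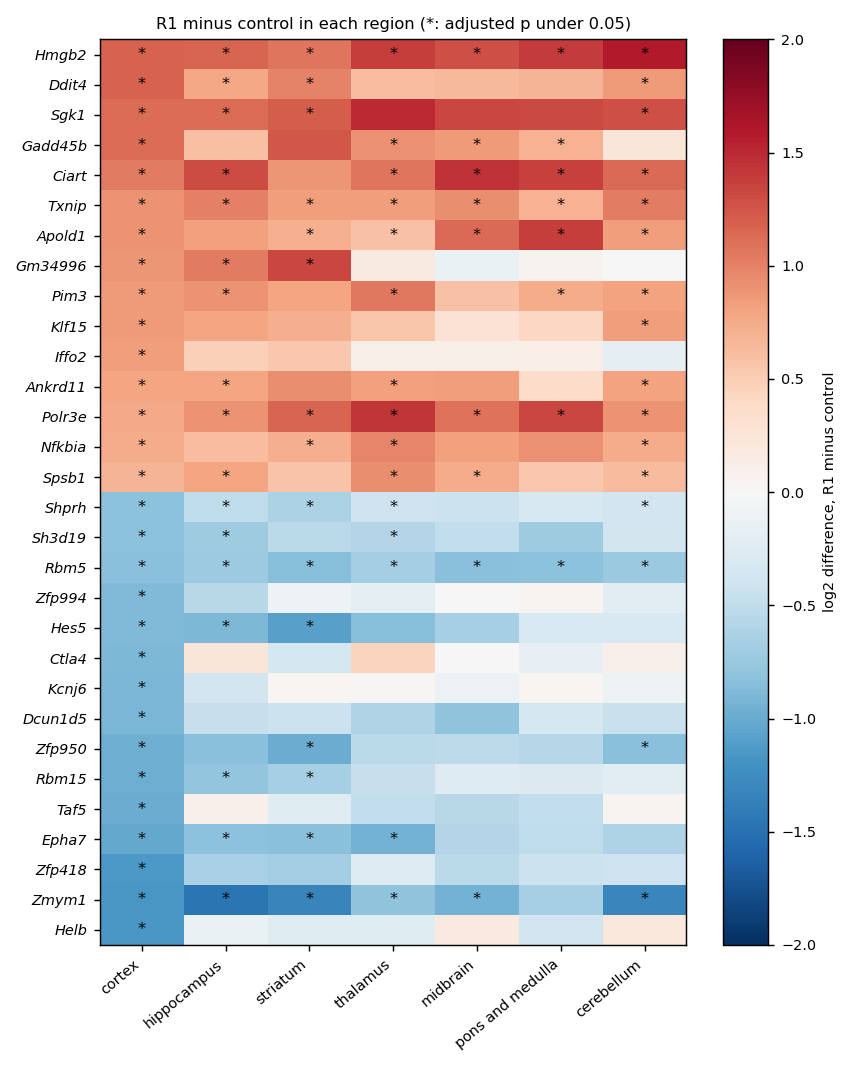
Colour gives the log2 difference between R1 and control for the 15 largest rises and 15 largest falls of cortex (rows) in cortex and in the other 6 regions (columns), with an asterisk where the adjusted p in that region was under 0.05. Hmgb2, Txnip, Polr3e and Rbm5 carry an asterisk in every column, while Iffo2, Zfp994, Ctla4, Kcnj6, Dcun1d5, Taf5, Zfp418 and Helb carry it in cortex alone.

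Of the markers of other cells and regions 1, Opalin, was called, and their part in the results above was not tested. The share of all transcripts below 0 was 53.4%. Summed over each list, the 10 hindbrain and cerebellum genes stood at 684 to 707 at R1 and 848 to 870 in control. Of these, 8 of 10 lay below 0 and 0 were called. Over the R1 and control arrays of cortex, Hoxa5, Zic1, Neurod1 and Cbln1 averaged 183, 175, 170 and 132. Hoxa5 averaged 149 in cerebellum and 228 in pons and medulla, and Zic1, Neurod1 and Cbln1 averaged 3510, 2632 and 2080 in cerebellum. In cortex Hoxb5 and Pcp2 averaged 2.01 and 33.6, against 298 in pons and medulla for Hoxb5 and 3998 in cerebellum for Pcp2. The 7 precursor markers of oligodendrocytes summed to 883 to 984 at R1 and 1009 to 1039 in control, with 4 of 7 below 0 and 3 of them at an unadjusted p under 0.05. Bmp4 gave -0.69 (adjusted p = 0.203) and Gpr17 -0.63 (adjusted p = 0.311), both with the R1 arrays below all controls, as did the striatal Drd1 (-0.62, adjusted p = 0.281) and the astrocyte factor Sox9 (-0.44, adjusted p = 0.382). The 10 astrocyte markers summed to 12865 to 13062 at R1 and 12270 to 12486 in control, with 7 of 10 above 0 and 0 called. Mature oligodendrocyte markers overlapped, at 10289 to 10595 at R1 and 9443 to 10331 in control, with 8 of 10 above 0 and Opalin called. Choroid plexus genes varied most between single dissections, with 415 to 1043 at R1 and 587 to 3163 in control. Sums for excitatory and inhibitory neurons, cortical layers, microglia, endothelium, mural cells, meninges, striatum, hippocampus, thalamus, red cells and leukocytes overlapped between the groups.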

How the data were processed

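Mouse brain RNA was hybridised to 1 array per sample. Per the submitters' processing notes the authors used GCOS 1.3, and the deposited values were linear intensities whose mean, once 2% of probe sets were dropped at each end, did not differ between arrays, while the study's methods name GCRMA, whose log values these are not. Of 45101 probe sets 64 controls were left out. Of the 45037 tested, 34945 name 1 gene, 932 several and 9160 none (18193 genes). Values were taken as log2(intensity + 16), with a mean for each of the 8 cortex groups fitted with R 4.3.3 (limma, version 3.58.1, and data.table, version 1.17.8) and Benjamini-Hochberg adjustment. The steps were tested on simulated data. Differences between regions came from all arrays of the 7 regions, with the mouse as a random block (correlation 0.0369) taken from the replicate number, which the labels do not state to mark a mouse. No counts underlie intensities, so depth has no meaning here and the number of arrays limits the precision.

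Same-numbered R1 and control arrays deviated together (correlation of deviations from the group means 0.196, 0.205 and 0.133, against -0.22 to 0.05 for other pairs), as did R1 and H3 arrays (0.320, 0.289 and 0.256), so the replicate number was run as a block. Named genes were the 15 largest rises and falls with 1 gene name, up to 4 called members and the brightest member not called of each list, and the calls of the other comparisons. The genes and lists were chosen with earlier results of these data known. Alternatives were other offsets, quantile normalization, median centring, only probe sets above the median level, other variance settings, the methods' tests, the block, other probe sets and leaving out arrays. The arrays of R3 and the joint omission of both replicate 2 arrays were added after seeing the data. Probe sets were matched to RefSeq promoters by gene symbol.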

Additional observations from a re-analysis of the deposited data

Results flagged for a closer look

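The change at R1 differed between cortex and striatum for 1 transcript, that of Cd274, the PD-L1 gene, in the test of the difference itself. The change in cortex minus that in striatum was -1.67 on the log2 scale (SE 0.32, limma, adjusted p = 0.0295), with neither region's own change called. Its cortex arrays lay at 2.72 to 10.5 at R1 and 13.8 to 36.9 in control, near background. No test for single arrays far from the others was run, since groups of 3 are too small for it. Control 2 was described above because it was the highest control in 69.1% of the falls.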

How the results depend on the processing

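The counts of R1 against control, 32 higher and 110 lower, were 55 and 222 with only the probe sets above the median level, 21 and 17 with each array centred on its median, 32 and 63 after quantile normalization, 70 and 208 with the replicate block (which kept all 32 and 109 of the calls, Hes5 being lost), and 0 and 0 with only the 6 arrays compared (960 and 2132 at an unadjusted p under 0.05). The methods' test gave 82 and 165, the methods' plain Student test 1119 and 1811 unadjusted and 0 and 0 after Benjamini-Hochberg adjustment. Leaving out 1 array gave 10 to 29 higher and 22 to 118 lower, and leaving out both replicate 2 arrays, tried after seeing the data, 0 and 0 (1073 and 2138 unadjusted). Against H3, the 3 higher and 6 lower were 5 and 13 among brighter probe sets, 0 and 0 with only those 6 arrays, and 0 to 3 and 4 to 7 without 1 array. At R3 against R1, the 98 higher and 20 lower were 27 and 12 with median centring, 178 and 32 among brighter probe sets, 0 and 0 with only those 6 arrays (1990 and 1027 unadjusted), 174 and 34 with the replicate block, and 13 to 91 and 4 to 21 without 1 array. The count of differences from striatum, 1, was 2 with an offset of 1 or of 32 and 0 with no random block or only the R1 and control arrays, and 0 to 5 without 1 cortex array, while differences from the mean of the other regions were 1 to 5 and from hippocampus 0 to 1 without 1 array. The counts not given here stayed within 1.5 times. The cause of these shifts was not tested, other than that fewer arrays or fewer transcripts entered the fit.

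Of the 36 called genes named by rule, the block kept 35, an offset of 1 kept 28, quantile normalization 28 and median centring 19. None turned its sign under these settings, but other probe sets of a gene did: Gadd45b gave -0.0698, Ankrd11 -0.0456, -0.25, -0.10, -0.0023, -0.33 and -0.29, Epha7 0.0583, Dcun1d5 0.13 and 0.0723, Kcnj6 0.22, Sh3d19 0.12, Shprh 0.0377 and Kcnj9 0.18. Among genes not called, quantile normalization turned Plk2 (-0.0266), Gria2 (-0.0289) and Gabbr1 (-0.0133) and median centring Cox7a2 (0.0131), and leaving out 1 array gave -0.36 to 0.11 for Sesn3, -0.0832 to 0.26 for Egr1, -0.0197 to 0.16 for Tef, -0.045 to 0.11 for Fth1, -0.0224 to 0.0741 for Plk2, -0.0312 to 0.12 for Tob1, -0.29 to 0.00944 for Spred2, -0.41 to 0.0725 for Trib2, -0.10 to 0.14 for Aldoa, -0.029 to 0.0638 for Gria2 and -0.0187 to 0.20 for Kcna1. Values near 16 or below are limited by the offset, and 3 arrays a group limit all others.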
